A study of Mus musculus with 4 samples.

Results

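The 10 genes described here encode tethering and matrix proteins of the Golgi apparatus: Trip11, Golga1, Golga2, Golga4, Golga5, Golgb1, Gcc1, Gcc2, Gorasp2 and Uso1. They were chosen by name, as a set of mouse Golgi tethers that includes Trip11, and were matched by symbol to the Entrez gene identifiers of the deposited tables. All 10 were listed in all 4 libraries, among 17667 genes listed in at least 1 library and 15275 listed in all 4. Golgins are long coiled-coil proteins that sit on Golgi membranes by one end and catch passing vesicles with the rest of the molecule. Which cisterna a golgin occupies, and which vesicles it catches, helps to decide where secretory and recycled cargo is delivered. In sympathetic neurons, which release noradrenaline into brown and white fat, membrane proteins and secretory cargo made in the cell body pass through this apparatus on their way to the axon.

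RNA-seq was measured in sympathetic ganglia (SG) of thoracic levels T1–T4 from C57BL/6 mice aged 12 weeks that had been kept at 5 °C for 1 day, so that all groups were cold-exposed. There were 4 libraries, each a pool from 6 mice: 2 WT libraries, 1 library of TRKC+/- mice, which carry a single functional copy of the gene for the neurotrophin-3 receptor TRKC in all tissues, and 1 library of AdNTF3-Tg mice, which overexpress neurotrophin-3 in adipocytes under the adiponectin promoter. The study used separate WT controls for each mutant, and the labels do not say which WT library was raised with which mutant. The names of the deposited tables give the pairing used first here, but a name is not a label and was not used to assign it. By the labels alone, either pairing was possible. The library labelled TRKC+/- was compared first with WT library 1, and the AdNTF3-Tg library with WT library 2. The fold changes of the 10 genes are given beside those of the exchanged pairing.

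The libraries held between 8665955 and 8894985 reads on genes. The 14 sympathetic neuron markers, among them Th and Dbh, the enzymes of noradrenaline synthesis, were listed in all 4 libraries, with summed levels between 11930 and 12720 FPKM (reads per kilobase of transcript, scaled to the reads of the library). Ntrk3, the gene for TRKC, was not lower in the library labelled TRKC+/- at this depth, with 91 reads against 78 in WT library 1 and 83 in WT library 2. Its log2 fold change against WT library 1 was 0.15, with a 95% counting interval from −0.27 to 0.64. Whether transcripts of the altered copy still give reads was not tested. WT library 1 stood apart from WT library 2 in the 8 skeletal muscle markers, whose summed level was 99.9 FPKM against 3.37 FPKM. These markers bear on the comparisons below and are set beside them.

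Trip11 is shown first by a part of its promoter, together with Golga1, because Golga1 was the member whose pattern over the libraries lay nearest to that of Trip11. Of the 10 genes, 8 had an entry in the RefSeq promoter table for GRCm38.p6. The 150 bases below run from 250 to 101 bases before the annotated start, 5′ to 3′ on the minus strand, at chr12:101913272-101913421 for Trip11 and chr2:39065642-39065791 for Golga1. Capitals mark the letters of a motif searched on both strands: the CCAAT box (CCAAT), the GC box (GGGCGG), the E-box (CACGTG), the cAMP response element (TGACGTCA) and an element linked to the Golgi stress response (ACGTGGC, which can overlap an E-box).
Trip11: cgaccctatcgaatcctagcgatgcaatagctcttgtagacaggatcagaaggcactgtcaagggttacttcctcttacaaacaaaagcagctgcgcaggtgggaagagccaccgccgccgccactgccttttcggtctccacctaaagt
Golga1: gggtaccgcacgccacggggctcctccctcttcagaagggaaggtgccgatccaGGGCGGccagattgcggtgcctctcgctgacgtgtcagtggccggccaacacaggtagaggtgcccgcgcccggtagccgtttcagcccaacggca
None of these letters was found in the Trip11 window, and the Golga1 window held 1 GC box, a motif found in 16.9% of 32493 promoter windows of the same length. The G and C content was 53.3% in Trip11 and 68.0% in Golga1, against a median of 50.7% over all windows. Among the 8 genes with an entry, the GC box was found in 2, the E-box in 2 and the CCAAT box in 1, against 16.9%, 2.9% and 20% of all windows. The 8 genes had 9 windows, because Golga5 had more than 1, and a gene was counted if any of its windows held the motif. The cAMP response element and the Golgi stress element, held by 0.375% and 0.985% of all windows, were found in 0 of the 8. No motif of the search was common to the Trip11 and Golga1 windows. The bases nearer to the start than 101 were not searched, so a motif missing from a window may still be present in the promoter.

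The levels of the 10 genes spanned a wide range, and Trip11 was the lowest. On the FPKM scale, which allows levels to be compared between genes because it is per length, the mean over the 4 libraries was 62.5 for Gorasp2, 41.3 for Uso1, 32.3 for Golga2, 18.7 for Golga4, 11.5 for Golgb1, 10.8 for Golga5, 7.52 for Golga1, 7.33 for Gcc1, 6.89 for Gcc2 and 2.38 for Trip11. Neighbours in this order did not overlap over the 4 libraries, with these exceptions: Golgb1 overlapped Golga5, Golga1 overlapped Gcc1, and Gcc1 overlapped Gcc2. The median of the members' mean levels was 11.1 FPKM, against 7.89 FPKM over all genes. Together the 10 genes took 7507 and 7458 reads in WT libraries 1 and 2, 7288 reads in the library labelled TRKC+/- and 8007 reads in the AdNTF3-Tg library. Their transcripts were long, with a median of 4444 bases against 2802 bases over all genes, and 6 of the 10 fell in the longest of 4 equal classes of length.

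**Figure D1:**
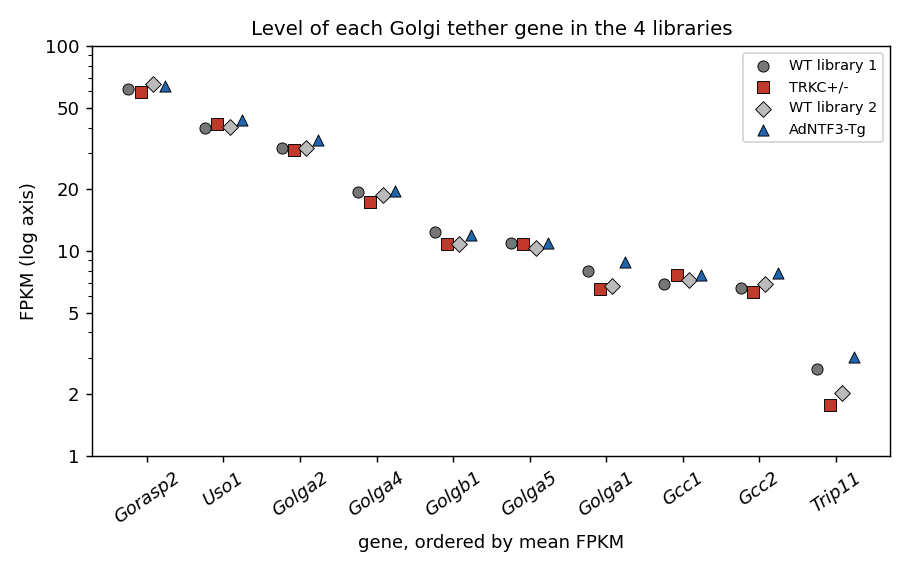
Level of each gene in FPKM (log axis) in the 4 libraries, 1 point per library, with genes ordered by their mean. The points of most genes lie close together between libraries, while Trip11, the lowest, runs from 1.77 to 3.04 FPKM and Golga1 from 6.54 to 8.81 FPKM.

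Trip11 encodes a golgin of the cis-Golgi that captures small, strongly curved vesicles, and that holds the ciliary transport protein IFT20 at the Golgi. It was first found as a partner of the thyroid hormone receptor. The gene lies on the minus strand of chromosome 12, at 103075582 to 103151477 of NCBIM37 (mm9), and was counted on 1 transcript of 6448 bases. Trip11 was at 2.66 FPKM (148 reads) and 2.03 FPKM (115 reads) in WT libraries 1 and 2, at 1.77 FPKM (101 reads) in the library labelled TRKC+/- and at 3.04 FPKM (171 reads) in the AdNTF3-Tg library. The library labelled TRKC+/- was thus below both WT libraries and the AdNTF3-Tg library above both. The highest level was 1.72 times the lowest, the largest such ratio of the 10 genes.

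The log2 fold change of Trip11, computed as the log2 ratio of FPKM + 0.1, was −0.56 in the library labelled TRKC+/- against WT library 1, with a 95% counting interval from −0.97 to −0.21. In the AdNTF3-Tg library against WT library 2 it was 0.56, with an interval from 0.23 to 0.93. With the WT libraries exchanged, the difference was −0.19 (interval −0.60 to 0.20) for the library labelled TRKC+/- and 0.19 (interval −0.14 to 0.51) for the AdNTF3-Tg library. The 2 WT libraries themselves differed by 0.37, with an interval from 0.03 to 0.76. The directions thus held against either WT library, while the sizes under the first pairing included a difference between the WT pools. Against the mean of the log2 WT levels, Trip11 was −0.37 in the library labelled TRKC+/- and 0.37 in the AdNTF3-Tg library, about the size of the difference between the WT libraries. Trip11 was among the genes the study singled out on these same libraries, so its directions are not independent evidence. In bulk tissue, fewer cells that express the gene and less RNA per cell cannot be told apart.

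Past an absolute log2 fold change of 0.5, the cutoff used by the study, Trip11 was the 1 member of 10 in each comparison of the first pairing. Among all genes, 10.7% passed this cutoff in the library labelled TRKC+/- against WT library 1 and 13.3% in the AdNTF3-Tg library against WT library 2, while 0 of the 9 other members did. Trip11 itself was singled out by the study from these libraries, so its place past the cutoff was known beforehand. With the WT libraries exchanged, 0 of 10 members passed it, against 12.7% and 13.9% of all genes. Between the 2 WT libraries 0 of 10 passed, against 13.4% of all genes. Genes lower past the cutoff in the library labelled TRKC+/- and higher past it in the AdNTF3-Tg library numbered 202 under the first pairing, 1.322% of all genes, and Trip11 was the 1 member among them. With the WT libraries exchanged, they numbered 168, or 1.1%, with 0 members.

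**Figure D2:**
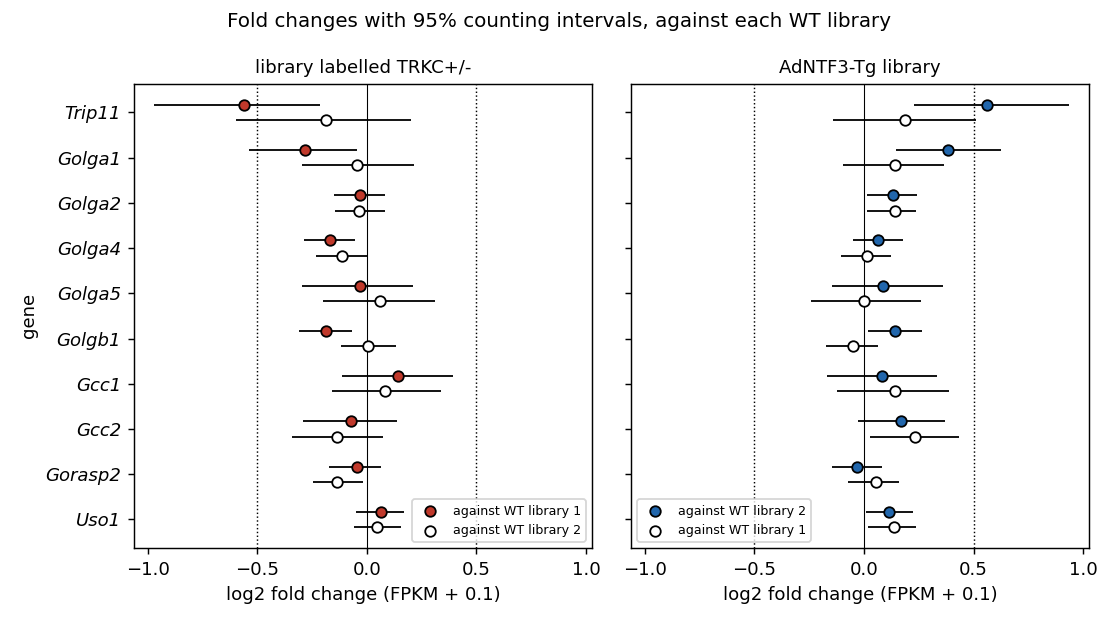
Log2 fold change of each gene (points) with its 95% counting interval (lines) in the library labelled TRKC+/- (left) and the AdNTF3-Tg library (right), against the WT library of the first pairing (filled) and the other WT library (open). Dotted lines mark −0.5 and 0.5. Trip11 lies past them only under the first pairing, at −0.56 and 0.56, and at −0.19 and 0.19 under the exchanged one.

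The other tethers of the cis side were at nearly the same level in all libraries. Golga2, a cis-Golgi matrix protein that anchors incoming vesicles, was at 31.6 and 31.78 FPKM in WT libraries 1 and 2, at 30.97 FPKM in the library labelled TRKC+/- and at 34.81 FPKM in the AdNTF3-Tg library. The log2 fold change of Golga2 was −0.03 in the library labelled TRKC+/- against WT library 1 and 0.13 (interval 0.02 to 0.24) in the AdNTF3-Tg library against WT library 2. Uso1, the vesicle docking protein that binds Golga2, was at 39.74, 40.28, 41.55 and 43.67 FPKM, with the libraries in that order. Its differences were 0.06 in the library labelled TRKC+/- and 0.12 (interval 0.01 to 0.22) in the AdNTF3-Tg library. Golga2 and Uso1 were highest in the AdNTF3-Tg library, and the difference was 0.14 for each against WT library 1 as well. Against WT library 2, the library labelled TRKC+/- differed by −0.04 in Golga2 and 0.04 in Uso1. Gorasp2, a stacking protein of the medial cisternae, was at 61.43, 65.34, 59.47 and 63.91 FPKM, with differences of −0.05 and −0.03 under the first pairing and 0.06 in the AdNTF3-Tg library against WT library 1. Its 1 interval that left out 0 was that of the library labelled TRKC+/- against WT library 2, at −0.14 (−0.25 to −0.02). Exons of Golga2 and Gorasp2 overlap those of Swi5 and Tlk1 on the other strand, and whether counting used strand is not given in the sources used here. Tlk1 had between 1240 and 1370 reads and Swi5 between 1077 and 1216 reads per library, about as many as the members they overlap. On NCBIM37, Golga2 lies at 32142904 to 32163441 and Gorasp2 at 70499633 to 70550693 of chromosome 2, and Uso1 at 92566964 to 92631820 of chromosome 5, all on the plus strand.

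The golgins with a transmembrane anchor differed little as well. Golgb1, a giant golgin of the cisternal rims that takes part in the traffic of COPI vesicles, was at 12.34 FPKM (1177 reads) and 10.79 FPKM (1048 reads) in WT libraries 1 and 2, at 10.83 FPKM (1059 reads) in the library labelled TRKC+/- and at 11.91 FPKM (1151 reads) in the AdNTF3-Tg library. Both mutant libraries lay between the WT libraries. The difference was −0.19 (interval −0.31 to −0.07) in the library labelled TRKC+/- and 0.14 (interval 0.02 to 0.26) in the AdNTF3-Tg library under the first pairing. With the WT libraries exchanged it was 0.01 and −0.05, and between the WT libraries it was 0.19 (interval 0.08 to 0.32). Golgb1 therefore differed between the WT libraries as much as between mutant and WT. Golga5, a golgin that binds COPI vesicles within the stack, was at 10.99, 10.33, 10.76 and 10.99 FPKM in that order. Its differences were −0.03 and 0.09 under the first pairing and 0.06 and 0 under the exchanged one, and all of its intervals contained 0. Golga5 lies on the plus strand of chromosome 12 at 103708120 to 103736112 of NCBIM37, 556.6 kb from Trip11, and Golgb1 on the plus strand of chromosome 16 at 36875226 to 36933171.

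The trans-Golgi golgins are recruited by small GTPases through a GRIP domain and catch vesicles returning from endosomes. Golga1 was at 7.98 FPKM (303 reads) and 6.74 FPKM (260 reads) in WT libraries 1 and 2, at 6.54 FPKM (254 reads) in the library labelled TRKC+/- and at 8.81 FPKM (338 reads) in the AdNTF3-Tg library. From lowest to highest, the libraries stood in the order seen for Trip11. Its differences were −0.28 (interval −0.54 to −0.05) and 0.38 (interval 0.15 to 0.62) under the first pairing. They were −0.04 and 0.14 under the exchanged one, with intervals that contained 0, and the WT libraries differed by 0.24 (interval 0.01 to 0.50). Golga1 lies on the minus strand of chromosome 2 at 38871781 to 38921061 of NCBIM37. As for Trip11, the larger differences of Golga1 went with the first pairing.

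Golga4, which has the longest transcript of these trans-Golgi golgins, was at 19.35 and 18.67 FPKM in WT libraries 1 and 2, at 17.24 FPKM in the library labelled TRKC+/- and at 19.53 FPKM in the AdNTF3-Tg library. It was −0.17 (interval −0.29 to −0.05) in the library labelled TRKC+/- against WT library 1 and 0.06 in the AdNTF3-Tg library against WT library 2. Under the exchanged pairing it was −0.11 (interval −0.23 to 0.004) and 0.01, and both intervals contained 0. Gcc2 was at 6.61, 6.9, 6.28 and 7.78 FPKM in that order, with differences of −0.07 and 0.17, and of −0.13 in the library labelled TRKC+/- against WT library 2. The AdNTF3-Tg library held the most Gcc2, and there the interval left out 0 only against WT library 1, at 0.23 (0.03 to 0.43). Gcc1 was at 6.9, 7.18, 7.62 and 7.61 FPKM, and was higher than both WT libraries in both mutant libraries, by 0.14 in the library labelled TRKC+/- and 0.08 in the AdNTF3-Tg library under the first pairing, and by 0.08 and 0.14 under the exchanged one. All intervals of Gcc1 contained 0. On NCBIM37, Golga4 lies on the plus strand of chromosome 9 at 118415393 to 118491640, Gcc2 on the plus strand of chromosome 10 at 57718245 to 57768347, and Gcc1 on the minus strand of chromosome 6 at 28366091 to 28378390, where 1 of its neighbour Fscn3's exons, on the other strand, overlaps its own. Fscn3 had no entry under that symbol in any library.

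**Figure D3:**
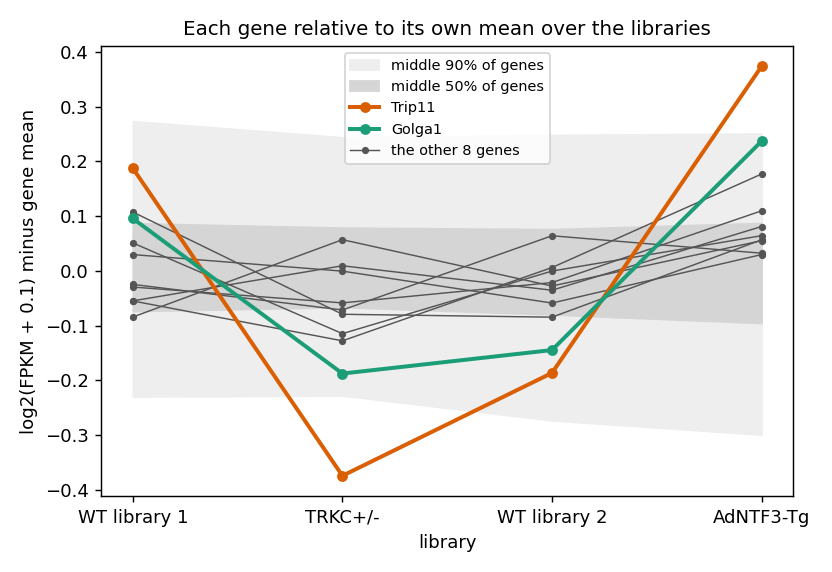
Log2(FPKM + 0.1) of each gene minus its mean over the 4 libraries, with lines that join the libraries only to follow a gene. Grey bands hold the middle 50% and 90% of the 12752 genes that averaged 1 FPKM or more. Trip11 and Golga1 are low in the library labelled TRKC+/- and WT library 2 and high in WT library 1 and the AdNTF3-Tg library, and the other 8 genes stay nearer to 0 than Trip11 in every library.

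As a set, the members had a median log2 fold change of −0.06 in the library labelled TRKC+/- and 0.12 in the AdNTF3-Tg library under the first pairing. In the library labelled TRKC+/-, 6 of 10 members were below both WT libraries, against 30.8% of all genes, and 2 were above both, against 31.9%. In the AdNTF3-Tg library, 7 of 10 were above both WT libraries, against 33.7% of all genes, and 0 were below both, against 34%. Golga5, Golgb1 and Gorasp2 were the 3 members that lay between or level with the WT libraries there. The counts in both mutant libraries include Trip11, which the study singled out on these libraries. No trend on transcript length was removed from the counts, and the shares over all genes are not matched for length. The median of all genes was 0 in both comparisons. Under the exchanged pairing the median of the members was −0.04 and 0.14. With a trend on transcript length removed, it was −0.06 and 0.08 under the first pairing. The median of the 9 members other than Trip11 was −0.05 and 0.12 under the first pairing.

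Counting intervals left out 0 below it for 4 of 10 members in the library labelled TRKC+/- against WT library 1 (Trip11, Golga1, Golga4 and Golgb1), against 7.33% of all genes, and above it for 0, against 6.89%. In the AdNTF3-Tg library against WT library 2 they left out 0 above it for 5 (Trip11, Golga1, Golga2, Golgb1 and Uso1), against 10.8% of all genes, and below it for 0, against 9.97%. Between the WT libraries, which have the same genotype, this was so for 3 members above 0 (Trip11, Golga1 and Golgb1), against 11.4% of all genes. With the WT libraries exchanged, 1 member was lower in the library labelled TRKC+/- (Gorasp2), against 9.24% of all genes, and 3 were higher in the AdNTF3-Tg library (Golga2, Gcc2 and Uso1), against 12.1%. These intervals cover counting error only and are narrower for genes with more reads, so they are no test between genotypes. They also keep the trend on transcript length. With that trend removed from the fold changes in the AdNTF3-Tg library against WT library 2, Golgb1 was 0.01, Golga2 0.09 and Uso1 0.08. Trip11 was then 0.48 and Golga1 0.34.

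In a fit with the 2 WT libraries as replicates, edgeR's quasi-likelihood test called 0 of the 10 members in either mutant. The smallest of the members' unadjusted p-values from edgeR, both those of Trip11, rounded to 0.124 in the AdNTF3-Tg library and 0.125 in the library labelled TRKC+/-. For Trip11 the edgeR log2 fold change was −0.40 (SE 0.24, adjusted p = 0.999) in the library labelled TRKC+/- and 0.38 (SE 0.22, adjusted p = 0.818) in the AdNTF3-Tg library. Without WT library 1 these fold changes were −0.21 and 0.57, and without WT library 2 they were −0.58 and 0.20, with no test. For Golga1 it was −0.17 (SE 0.16) and 0.26 (SE 0.16). Over the 14156 genes tested, edgeR called 1 gene in the library labelled TRKC+/- (Ucp1, 0.00706% of genes tested, and 1.93% at an unadjusted p under 0.05) and 0 genes in the AdNTF3-Tg library (5.88% at an unadjusted p under 0.05). DESeq2, on the same groups, also called 0 members in either mutant and 0 genes in the AdNTF3-Tg library, with 64 at an unadjusted p under 0.05. This fit had 1 residual degree of freedom, assumed that the single mutant libraries vary like the WT pools, and used the same WT libraries as controls in both comparisons.

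Markers of other cells in the ganglion samples moved between the libraries too. All 8 skeletal muscle markers were past the cutoff, lower in the library labelled TRKC+/- against WT library 1 (46.05 against 99.9 FPKM summed) and higher in the AdNTF3-Tg library against WT library 2 (35.26 against 3.37 FPKM), the directions of Trip11 and Golga1 under the first pairing. None of the 8 was at 0 in a library. The order of the summed muscle level was WT library 1, the library labelled TRKC+/-, the AdNTF3-Tg library and WT library 2, whereas Trip11 and Golga1 were highest in the AdNTF3-Tg library and lowest in the library labelled TRKC+/-. The 7 adipocyte markers summed to 381.2 and 344.5 FPKM in WT libraries 1 and 2, to 211.1 FPKM in the library labelled TRKC+/- and to 278.4 FPKM in the AdNTF3-Tg library. The glial markers, 9 in number, ranged from 987.3 FPKM in WT library 2 to 1156 in WT library 1, and the 5 fibroblast markers from 222.9 to 295.4 FPKM in the same libraries. The 5 endothelial markers stayed between 26.12 and 30.76 FPKM, the 7 macrophage markers between 105.9 and 144.8 FPKM, and the red blood cell markers between 49.31 and 138.1 FPKM, with Hbb-bt, 1 of the 4, not listed in any library. The part of these cells in the differences of the 10 genes was not tested.

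Transcript length also went with the fold changes. Over all genes, the median log2 fold change in the AdNTF3-Tg library against WT library 2 was −0.09 in the shortest of the 4 classes of length and 0.08 in the longest class, which holds 6 of the 10 members. In the library labelled TRKC+/- against WT library 1 these medians were −0.05 and 0.02. After a trend on length was removed, Trip11 was −0.57 in the library labelled TRKC+/- and 0.48 in the AdNTF3-Tg library, the latter below the cutoff of 0.5. Golga1 was −0.29 and 0.34, and Golgb1 −0.17 and 0.01. In the AdNTF3-Tg library Golga4 turned from 0.06 to −0.03, Gcc2 went from 0.17 to 0.09, Golga2 from 0.13 to 0.09, Uso1 from 0.12 to 0.08, Gcc1 from 0.08 to 0.04 and Gorasp2 from −0.03 to −0.01, while Golga5 stayed at 0.09. Under the exchanged pairing, the shortest and longest classes had medians of −0.14 and 0.09 in the AdNTF3-Tg library, and of −0.01 and 0.0029 in the library labelled TRKC+/-.

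**Figure D4:**
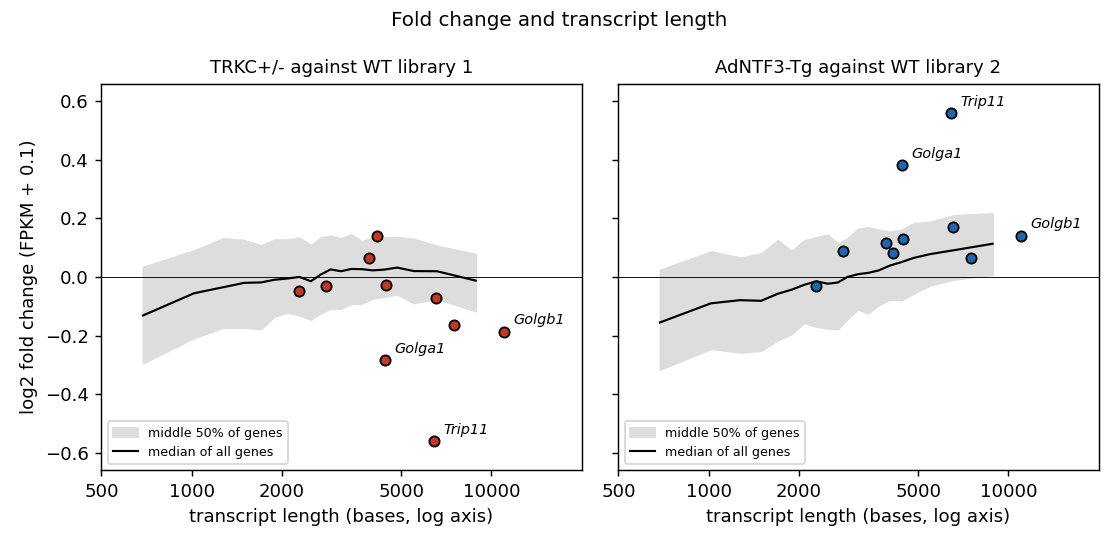
Log2 fold change of the 10 genes (points) against transcript length in bases (log axis) in the comparisons of the first pairing, with the median (line) and middle 50% (band) of all genes in 20 bins of length. In the AdNTF3-Tg library the median of all genes climbs with length, and Trip11 and Golga1 lie above the band. In the library labelled TRKC+/- they lie below it, at −0.56 and −0.28.

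The wider set of Golgi trafficking genes held few differences past the cutoff. Lists of other golgins, Golgi small GTPases, the COG, TRAPP and GARP tethering complexes, Golgi SNAREs, the COPI and COPII coats, trans-Golgi adaptors and receptors, retromer, and the partners of Trip11 together with Mib1 held 137 genes besides the 10, and all 137 were listed in all 4 libraries. In the library labelled TRKC+/- against WT library 1, 1 was higher past the cutoff (Sec16b, with 16 reads against 9, named after its value was seen) and 1 was lower (Mib1, which is in the lists because the study singled it out on these libraries), against 4.63% and 6.06% of all genes. In the AdNTF3-Tg library against WT library 2, 2 were higher (Sec24a and Mib1) and 0 lower, against 6.21% and 7.1% of all genes. Among genes that averaged 1 FPKM or more, a comparison added after the data were seen, 1 of 134 (Mib1) and 2 of 134 (Sec24a and Mib1) passed in either direction, against 4.89% and 7.16% of all such genes. After the exchange, 2 passed in the library labelled TRKC+/-, both higher, against 12.7% of all genes, and 1 in the AdNTF3-Tg library (Sec24a, higher), against 13.9%. The former were Sec16b and Copz2, a COPI subunit at 0.69 (interval 0.23 to 1.19), also named after its value was seen. Mib1 passed in neither. The median over the 137 genes was 0.01 in both comparisons of the first pairing, and −0.0036 and 0.03 with the WT libraries exchanged. Counting intervals left out 0 for 15 genes above and 12 below it in the library labelled TRKC+/-, against 6.89% and 7.33% of all genes, and for 18 above and 13 below it in the AdNTF3-Tg library, against 10.8% and 9.97%. Under the exchanged pairing these counts were 12 and 17, against 10.6% and 9.24% of all genes, and 21 and 18, against 12.1% and 13.8%. The most abundant genes of each list, such as Rab6b, a Golgi GTPase enriched in neurons (between 212.3 and 228.1 FPKM), and Cope, a COPI subunit (between 125.5 and 150.9 FPKM), stayed below the cutoff in both comparisons.

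Sec24a, a cargo-binding subunit of the COPII coat that carries proteins from the endoplasmic reticulum to the Golgi, was at 2.95 and 2.78 FPKM in WT libraries 1 and 2, at 2.88 FPKM in the library labelled TRKC+/- and at 4.28 FPKM in the AdNTF3-Tg library. The AdNTF3-Tg library thus stood alone, by 0.60 (interval 0.33 to 0.91) against WT library 2 and 0.52 (interval 0.25 to 0.82) against WT library 1. Unlike Trip11, Sec24a passed the cutoff against either WT library. It was named because it passed against WT library 2, and no trend on length was removed from its values. edgeR called 0 genes in the AdNTF3-Tg library. Mib1, a ubiquitin ligase that sends Notch ligands into endocytosis, was at 5.72, 3.79, 3.49 and 5.69 FPKM with the libraries in that order. Its differences were −0.70 (interval −1.07 to −0.38) and 0.57 (interval 0.25 to 0.93) under the first pairing and −0.12 and −0.01 under the exchanged one, and the WT libraries differed by 0.58 (interval 0.27 to 0.94). Mib1 differed between the WT libraries by about as much as between the AdNTF3-Tg library and WT library 2, and it too was singled out by the study on these libraries. Of the partners of Trip11, Ift20 was at 34.51, 37.72, 34.53 and 29.58 FPKM in the order given for Mib1, with differences of 0.00 and −0.35 (interval −0.63 to −0.07), and of −0.13 and −0.22 under the exchanged pairing. The thyroid hormone receptor genes Thra (between 115.3 and 122.2 FPKM) and Thrb (between 0.49 and 0.64 FPKM) stayed below the cutoff in both comparisons.

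The genes whose pattern over the 4 libraries was most like that of Trip11 were sought among the 12751 other genes that averaged 1 FPKM or more, by the Euclidean distance of their log2 levels centred on each gene's mean. The nearest were Dennd11 (distance 0.05), Tmem178b (0.061), Lrrc10b (0.078), Adap2 (0.088) and Cpeb4 (0.097), against a median distance of 0.629. Tmem178b, the second of these, had between 161 and 265 reads, whereas Dennd11, Lrrc10b and Adap2 had at most 45. Mib1 came at rank 15 and Golga1 at rank 74, and the other 8 members lay between ranks 768 and 6026. With 4 libraries, many genes fall near any given pattern, and no p-value is attached to these ranks. Of the neighbours of Trip11 on chromosome 12, Fbln5 was 0.05 and 0.08, Atxn3 −0.16 and 0.32, and Cpsf2 −0.03 and 0.20, in the library labelled TRKC+/- and the AdNTF3-Tg library under the first pairing. Rin3, further off toward Golga5, was −0.45 and −0.45. Under the exchanged pairing, Fbln5 was 0.04 and 0.09, Atxn3 −0.11 and 0.27, Cpsf2 0.12 and 0.05, and Rin3 −0.58 and −0.31. Atxn3 stood in the same order of libraries as Trip11, with smaller differences under the first pairing.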

How the data were processed

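RNA was pooled from the T1–T4 SG of 6 mice per library, and mRNA was selected on oligo(dT). The authors filtered the single-end reads in SOAPnuke before mapping in HISAT2. The study's methods name mm9 and the submitters' processing notes name mm10 and RSEM; the tables hold no coordinates. The authors deposited, per gene, an expected count of reads that need not be whole, an FPKM value scaled to length and reads, and, in the deposited tables, the transcript length. Positions are from GENCODE M1 on NCBIM37. Promoters are from RefSeq on GRCm38.p6 and the builds were not mixed. Of 17667 identifiers, 17619 matched a symbol.

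The 10 genes and the other lists were chosen with earlier results of these data known. Fold changes are log2((FPKM + 0.1)/(FPKM + 0.1)) for genes present in all 4 tables, with a cutoff of 0.5. With 1 library per mutant they have no p-value. Counting intervals (95%, Clopper-Pearson, exact, on the ratio of rounded expected counts) cover counting error only. edgeR 4.0.16 (R 4.3.3) was run on rounded expected counts of all 4 libraries with TMM, filterByExpr and Benjamini-Hochberg adjustment over all genes tested, and DESeq2 1.42.0 was the alternative. The SE given with an edgeR fold change is its absolute value over the square root of the test's F statistic. Both edgeR and the intervals were tested on simulated data. No label ties a WT pool to a mutant, and p-values measure only the spread between these 2 libraries. Alternatives changed the pseudocount, the WT library, the centring, the filter, the cutoff, the scaling (TMM) and the length trend. Other genes were named by rule: list genes past the cutoff whose interval left out 0, the most abundant gene of each list, Mib1, Ift20, Thra and Thrb, and the 5 genes nearest to Trip11. Sec16b, Copz2 and the neighbours of Trip11 on chromosome 12 were named outside these rules.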

Additional observations from a re-analysis of the deposited data

How the results depend on the processing

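Trip11 kept its direction in both mutants under every alternative tried. It passed the cutoff in neither mutant, so that 0 members did, with a pseudocount of 1 (−0.40 in the library labelled TRKC+/-, 0.42 in AdNTF3-Tg), with the WT libraries exchanged (−0.19 and 0.19), against the mean WT FPKM (−0.39 and 0.36) and at a cutoff of 1. With the length trend removed, 0 members passed in the AdNTF3-Tg library. Over all genes, 1632 passed in the library labelled TRKC+/-, 2033 in AdNTF3-Tg and 2044 between the WT libraries. These counts became 365, 580 and 633 with a pseudocount of 1, where low genes count less by construction, 624, 913 and 926 with a mean of at least 1 FPKM, where fewer genes enter, and 385, 592 and 538 at a cutoff of 1. With missing genes taken as 0 they became 2936 and 3297 in the mutants. For the library labelled TRKC+/-, edgeR's 1 call became 2 with DESeq2, 2 with median-of-ratios size factors and 0 without a filter on low counts; the cause was not tested. No paired analysis was possible because each mutant has 1 library and no label ties a WT library to it. Without either WT library no residual degree of freedom is left, so only the fold changes were computed. The depth limits Trip11 most, with an interval 0.75 wide on the log2 scale against 0.22 for Uso1 in the library labelled TRKC+/-.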
